A study of Mus musculus with 4 samples.

Results

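C2C12 is an established line of mouse myoblasts. When serum is lowered, its cells stop dividing, elongate and join into multinucleated myotubes. The cells described here had received only vehicle, and their total RNA was collected 48 h after the start of differentiation. Each of 2 samples, Control_1 and Control_2, was measured on 1 Affymetrix mouse array of 45101 probe sets, among 4 arrays in the whole series. All 18193 genes with a probe set of their own were ranked by the mean of both arrays, each gene standing for the probe set with its highest mean. The other arrays carried cells given an inhibitor of the histone demethylase LSD1 and were not used. Cells were expanded in DMEM with 25 mM glucose and 10% fetal bovine serum, and were then moved to the same glucose with 2% horse serum. Labelled cRNA was prepared from 250 ng of total RNA. Which vehicle was used, and how much, is not stated in the labels. The labels also do not say whether Control_1 and Control_2 were grown as separate cultures, so the difference between them may be technical. No array of proliferating C2C12 cells was at hand, so a level below is a level at 48 h and never a change.

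Muscle differentiation is driven by a family of basic helix-loop-helix factors, of which Myod1 and Myf5 mark the committed myoblast, Myog the cell that has begun to differentiate, and Myf6 the later myofibre. These proteins pair with broadly made partners such as Tcf3 and Tcf12, bind short E-box sequences and act with Mef2 factors on the genes of the contractile apparatus. The sarcomere built in this way first holds embryonic, cardiac and slow isoforms, many of which are replaced by adult fast or slow isoforms as a fibre matures. C2C12 cells also lay down a collagen-rich matrix, and undifferentiated reserve cells can remain beside the myotubes.

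The promoter windows of the 5 genes taken as markers are shown because promoters of muscle genes are known sites of action of the factors named above. Myog, Myh3, Acta1 and Ckm mark differentiating muscle, and Mki67 marks cycling cells. Sequences are from RefSeq (GRCm38.p6), run 5′ to 3′ on the strand of the gene, and span 250 bases before to 50 bases after the start. Capitals mark each E-box (CANNTG, the same on both strands) and each TATAAA. The Myog window is chr1:134289754-134290053 on the plus strand, that of Myh3 chr11:67078050-67078349 on the plus strand, and that of Acta1 chr8:123894726-123895025 on the minus strand. The Ckm window is chr7:19410844-19411143 on the plus strand, and that of Mki67 chr7:135716330-135716629 on the minus strand.
Myog: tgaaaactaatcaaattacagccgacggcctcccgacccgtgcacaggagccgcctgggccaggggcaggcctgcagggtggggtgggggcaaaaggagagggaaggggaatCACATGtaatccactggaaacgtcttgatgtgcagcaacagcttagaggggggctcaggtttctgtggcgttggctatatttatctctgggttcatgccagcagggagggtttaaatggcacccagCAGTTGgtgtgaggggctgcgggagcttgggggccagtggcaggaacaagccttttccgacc
Myh3: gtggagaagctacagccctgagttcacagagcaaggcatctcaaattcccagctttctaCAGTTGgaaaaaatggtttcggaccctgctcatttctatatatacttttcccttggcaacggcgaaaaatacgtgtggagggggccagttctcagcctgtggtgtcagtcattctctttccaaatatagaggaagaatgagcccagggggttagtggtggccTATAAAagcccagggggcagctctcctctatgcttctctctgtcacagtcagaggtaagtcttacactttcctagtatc
Acta1: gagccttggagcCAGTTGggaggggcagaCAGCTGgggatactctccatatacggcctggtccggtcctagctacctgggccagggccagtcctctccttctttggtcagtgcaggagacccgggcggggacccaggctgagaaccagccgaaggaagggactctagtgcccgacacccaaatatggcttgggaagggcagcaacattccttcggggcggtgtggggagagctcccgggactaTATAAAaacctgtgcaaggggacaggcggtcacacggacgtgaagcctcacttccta
Ckm: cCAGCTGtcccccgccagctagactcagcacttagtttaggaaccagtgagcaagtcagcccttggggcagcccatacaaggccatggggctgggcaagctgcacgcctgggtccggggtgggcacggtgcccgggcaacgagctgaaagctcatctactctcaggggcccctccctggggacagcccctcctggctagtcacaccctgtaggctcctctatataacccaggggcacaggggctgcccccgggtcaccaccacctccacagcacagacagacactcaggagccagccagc
Mki67: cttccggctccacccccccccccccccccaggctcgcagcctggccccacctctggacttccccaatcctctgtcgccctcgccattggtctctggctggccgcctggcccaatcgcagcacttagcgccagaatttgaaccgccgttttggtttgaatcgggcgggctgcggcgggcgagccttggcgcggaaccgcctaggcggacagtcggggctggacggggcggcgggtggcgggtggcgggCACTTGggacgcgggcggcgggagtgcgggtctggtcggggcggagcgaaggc

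The Myog and Acta1 windows each held 2 E-boxes, and the Myh3, Ckm and Mki67 windows held 1 each. TATAAA stood in the Myh3 and Acta1 windows, and the Acta1 window also held 1 CArG box, the sequence bound by serum response factor. An E-box is short and common: 72.3% of all 32851 mouse promoter windows of this length held at least 1, as did 67.5% of the 18109 windows of genes ranked here and 63.1% of the windows of genes in the top 10% by signal. Of 67 windows of sarcomere, junction and excitation genes that were bright on both arrays, 55 (82.1%) held an E-box, as did 15 of 19 windows (78.9%) of such genes that were not bright and 18 of 36 windows of cell cycle genes. TATAAA, searched on both strands, was found in 14 of the 67 windows (20.9%), against 13.6% of all windows, 9.77% of those of ranked genes and 2.78% of cell cycle windows. It was found in 3 of the 19 windows (15.8%) of such genes that were not bright. A CArG box was present in 8.96% of the 67 windows, against 1.63% of all windows and 1.35% of those of ranked genes. A MEF2 site was present in 10.4%, against 3.19% and 2.10%. In the 19 windows of such genes that were not bright, a CArG box was found in 4 (21.1%) and a MEF2 site in 2 (10.5%), and the difference from the bright genes was not tested. A MEF2 or CArG match can contain the letters of TATAAA, so the motif counts overlap. A match is a run of letters and not a bound site.

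Each pair of values below is the MAS5 signal on Control_1 and then on Control_2. MAS5 condenses the probes of a probe set into 1 linear brightness, scaled so that the 2% trimmed mean was 500.003 on both arrays. Brightness depends on the probes as well as on the transcript, so a rank orders probe sets and is no measure of how much more of 1 transcript than of another was present. A gene was called bright when it exceeded 57.9 on both arrays, the 95th percentile of the mean signals of 38 olfactory receptor genes, which stand in here for transcripts not sought in muscle cells. By this rule 60.4% of all genes were bright (10990 of 18193), and the top 10% held 1820 genes. Genes nearest this level had 1 array on either side of it, such as Lrrc46 at 64.6 and 51.3 and Cnnm4 at 44.2 and 71.6, both named after their values were seen. Median signals over all probe sets were 75.1 and 66.6, and actin probes at the 3′ and 5′ end of the transcript, whose ratio rises in degraded RNA, had a 3′ to 5′ ratio of 1.30 and 1.22.

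**Figure D1:**
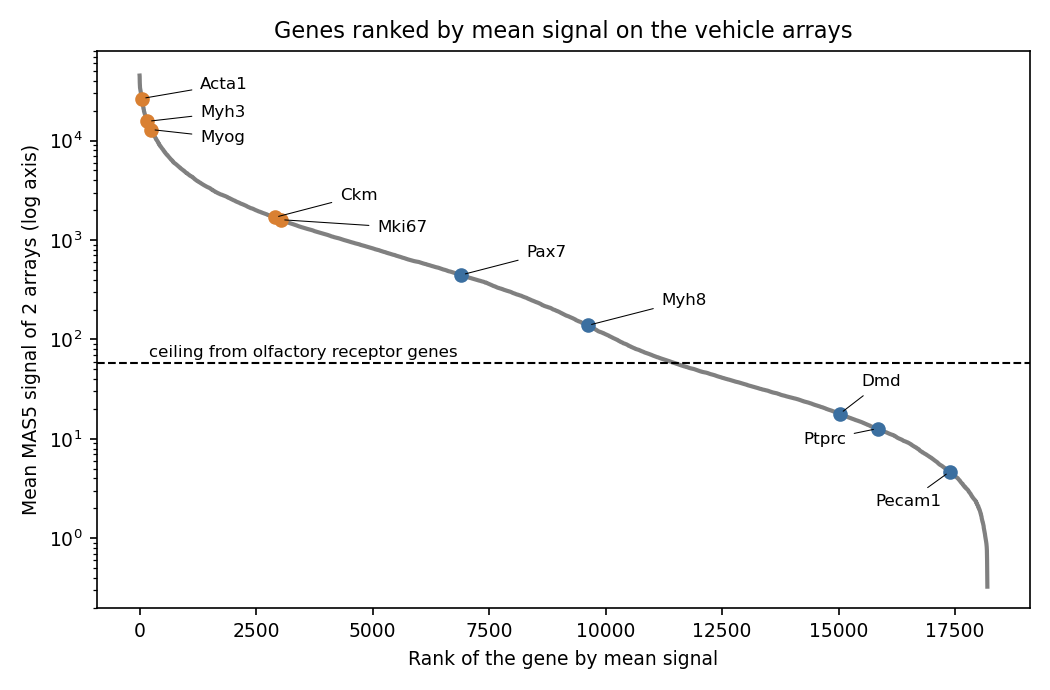
All 18193 genes in order of mean MAS5 signal (log vertical axis) against rank; orange points mark the 5 markers, blue points other genes named in the text, and the dashed line the ceiling of 57.9. Acta1, Myh3 and Myog lie on the steep left end, Ckm and Mki67 lie at ranks 2897 and 3026, and Dmd, Ptprc and Pecam1 lie below the dashed line.

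All 5 markers were bright. Acta1, the skeletal actin of the thin filament, gave 27073 and 25836 and stood at rank 46. Myh3, the embryonic myosin heavy chain, gave 15273 and 15923, and Myog gave 12999 and 12821. These muscle markers were at percentiles 99.8, 99.1 and 98.7 of all genes, inside the top 10%. Ckm, the muscle creatine kinase, gave 1599 and 1773 and stood at percentile 84.1, outside the top 10%, and its other probe set gave 142 and 114. Mki67, made by cells in the cell cycle, gave 1628 and 1575 at percentile 83.4. Of the 4 muscle markers, Acta1, Myh3 and Myog stood high in the ranking, as the label of differentiating cells would have it. Ckm stood level with Mki67, and being bright, which 60.4% of all genes were, says little for the label.

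Markers of heart, smooth muscle, satellite and fibro-adipogenic cells were kept apart and are given in the paragraphs below. The markers of the remaining cell types were mostly dim. Of 32 measured markers of neurons, adipocytes, bone and cartilage, leukocytes, endothelium and epithelium, 7 were bright (21.9%, against 60.4% of all genes). In the top 10% lay 0 of them, and their median percentile was 28.6. Their summed signals ranged from 136 for the 6 endothelial genes on Control_2 to 489 for the 6 epithelial genes on Control_1. Endothelial Pecam1 gave 6.53 and 2.82 and the leukocyte antigen Ptprc gave 15.5 and 9.93, both below the ceiling. The bright members were Syn1 of neurons (74.4 and 124), Cebpa of adipocytes (132 and 135), Sp7 of bone (76.4 and 106), Adgre1 of macrophages (93.1 and 94.5) and the epithelial genes Epcam (192 and 190.2), Krt14 (98.7 and 80.0) and Cdh1 (65.8 and 79.0). Epcam had the highest mean of these 32 genes.

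Markers of heart and of smooth muscle overlap with early skeletal muscle and are described for that reason. Of 6 heart markers, Nppb, a natriuretic peptide (263 and 269), and Nkx2-5, a cardiac homeobox factor (83.2 and 68.1), were bright, while Nppa, Myl7, Tnni3 and Myh6 were not. Of 6 smooth muscle markers, Acta2 gave 31972 and 30622, Tagln, an actin-binding protein of smooth muscle and myofibroblasts, gave 3812 and 3766, and Smtn gave 502 and 464. Myh11 (mean 11.2 ± 5.41, SD, n = 2), Cnn1 (58.2 and 8.97) and Lmod1 (6.75 and 5.77), which are more closely tied to mature smooth muscle, were not bright. The Acta2 value came from a probe set of a kind whose probes can match related transcripts, and the gene's other probe sets gave 473 and 491, and 116 and 79.0.

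Of 6 satellite cell markers, 4 were bright (66.7%), a share near the 60.4% of all genes, and 0 were in the top 10%. Pax7, the factor of the muscle stem cell, gave 464 and 428, and Cd34 (928 and 704), Spry1 (549 and 549) and Heyl (382 and 451) were also bright, while Calcr (1.82 and 13.4), a receptor of quiescent satellite cells, and Chodl (52.8 and 5.94) were not. Of 5 markers of fibro-adipogenic cells, Dcn gave 14781 and 14754 and Pdgfra 351 and 341, and Cd34, given above, is on this list too. Bright were 4 of 5 (80%), against 60.4% of all genes, and 1 was in the top 10%. The dimmest members were Dpp4 and Pi16, of which the lower had a mean of 54.1 and was not bright. Among the bright members, 1 differed 1.5-fold between the arrays. The labels name 1 cell line and no other cells, and the source of these transcripts within the culture was not tested.

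The 30 brightest genes were made up of 13 genes of the cytosolic ribosome and 17 others. Lgals1, a galactose-binding lectin, ranked first at 46399 and 43644. Thymosin Tmsb4x, which binds actin monomers, gave 39998 and 36994, and the intermediate filament gene Vim gave 38278 and 37809. The elongation factor Eef1a1, the chaperone Hspa8, the iron store Fth1, the tubulin Tuba1a, the translation-linked Tpt1 and a further thymosin, Tmsb10, were also in this group. The cytoskeletal actin Actg1 gave 36097 and 33306, and the actin-binding calponin Cnn3 gave 31770.3 and 30736. Matrix genes among the 30 were Sparc (35096 and 32441) and Col3a1 (33191 and 33332). The membrane-binding annexin Anxa1 gave 31311 and 30550.0, and S100a4, a calcium-binding protein of the cytoplasm and nucleus, gave 34214 and 30521. Mylpf, the fast regulatory myosin light chain, at 33003 and 30204, was the brightest sarcomere gene. Of these 30 probe sets, 14 carried a suffix that marks possible matches to several transcripts.

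Among the 100 brightest genes were 32 ribosomal genes, 7 from the oxidative phosphorylation list, 7 from the collagen and matrix lists and 4 of the sarcomere. The last were Mylpf, Myl1, Acta1 and Tnnt2. Genes of these kinds that are on no list were not counted. The ribosomal genes were grouped after their values were seen. Of 43 measured, 42 were bright and 35 were in the top 10%, with a median percentile of 99.7. The exception was Rps16, with a mean of 1.07 on its only probe set, and Rpl39 gave 447 and 201, both named after their values were seen. The brightest genes were also short. The median genomic length was 4168 bp for the 30 brightest and 5212 bp for the 100 brightest, against 20597 bp for the top 10% and 21941 bp for all genes with a known length.

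Across the 23 lists of muscle, cycle, matrix and metabolism genes, 426 of 468 measured members were bright and 216 were in the top 10%, with a median percentile of 87.0. Each list count below stands beside the 60.4% of all genes that were bright and the 10% in the top 10%. The lists were chosen around muscle biology with earlier results of these arrays known, so this high share is a description of the choice and is not read as a property of the cells. Actins (99.8), troponins (98.6), tropomyosins (98.6), oxidative phosphorylation (97.2) and matrix (94.97) had the highest median percentiles. Myosin heavy chains (45.6), glycogen metabolism (56.4), myosin light chains (65.5) and excitation genes (68.8) had the lowest, each of them a list with both very bright and very dim members.

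**Figure D2:**
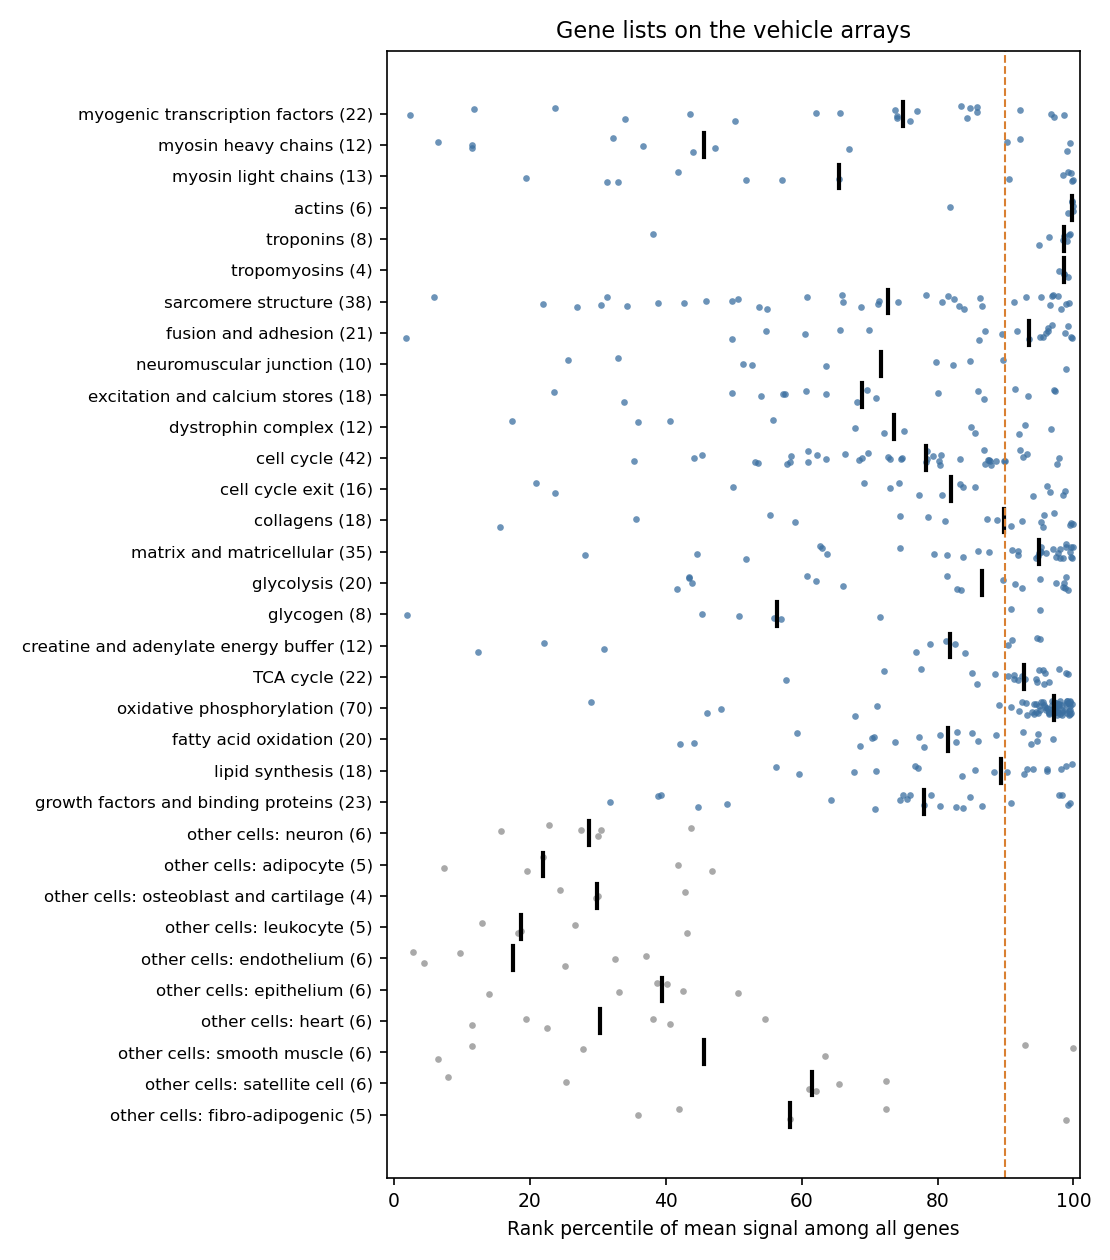
Rank percentile of every measured gene in each list, with 1 point per gene, a black bar at the median of each list and an orange dashed line at the start of the top 10%; the percentile is of the mean signal of both arrays among 18193 genes. Actins, troponins and tropomyosins crowd at the right end, the myosin heavy chains are spread over the whole range, and most lists of other cell types lie to the left. The satellite cell and fibro-adipogenic lists have medians of 61.6 and 58.3.

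Of 22 measured myogenic transcription factors, 18 were bright (81.8%, against 60.4% of all genes) and 4 were in the top 10% (18.2%, against 10%). The myogenic factors of the helix-loop-helix family did not stand alike. Myog gave 12999 and 12821, Myf5 gave 3283 and 3603 and Myod1 gave 1857 and 2000.2, all bright, with Myog and Myf5 in the top 10%. Myf6, the factor of the later myofibre, gave 43.0 and 53.1 and was below the ceiling on both arrays. The paired-box factor Pax7 was bright, as given above, and its relative Pax3, a factor of embryonic muscle precursors, was not (36.5 and 17.2).

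The partners and cofactors of these proteins were largely present. The E-protein Tcf12 gave 7477 and 8070.5 and Tcf3 gave 852 and 953. Among the Mef2 genes, Mef2a gave 7274 and 6662, Mef2d 1779 and 1771 and Mef2c 943 and 848, while Mef2b (3.54 and 19.4) was not bright. The homeobox genes of the sine oculis family and their Eya partners, which act upstream of the myogenic factors, were bright for Six4 (1729 and 2122), Six5 (109 and 85.0), Eya1 (510.0 and 591) and Eya4 (1656 and 1768) and dim for Eya2 (4.97 and 1.16). Tead4 gave 195 and 168 and Srf, which binds CArG boxes, gave 953 and 823. The inhibitors of helix-loop-helix factors, Id1 (1048 and 1084), Id2 (1498 and 1735) and Id3 (863 and 1134), were bright in the same RNA. Id1 differed little between the arrays, and Id3 was higher on Control_2.

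Of 12 measured myosin heavy chains, 7 were bright (58.3%), a share near the 60.4% of all genes, and 4 were in the top 10%: Myh9 (21909 and 20671) and Myh10 (3369 and 3529), which are non-muscle myosins, and Myh3 and Myh1 among the sarcomeric isoforms. Myh3 gave 15273 and 15923 and Myh1, an adult fast isoform, gave 2918 and 2775. The Myh1 value came from a probe set that may match related transcripts, a further set of this gene gave 2449 and 2401, and its remaining set gave 5.93 and 7.68, so Myh1 is uncertain. The slow and cardiac isoform Myh7 gave 561 and 628 and the perinatal isoform Myh8 gave 134 and 142, both bright. The adult fast isoforms Myh4 (54.0 and 59.4) and Myh2 (5.76 and 6.91), the atrial Myh6 (15.4 and 7.08) and Myh7b (59.7 and 27.9) were not bright. The non-muscle Myh14 gave 111 and 93.0. When a gene was given the mean of all its probe sets in place of the brightest, 2 heavy chains were in the top 10%.

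The light chains, actins and troponins had higher median percentiles than the heavy chains, with the light chains (65.5) well below the actins (99.8) and troponins (98.6). Of 13 myosin light chain and kinase genes, 9 were bright (69.2%, not far from the 60.4% of all genes) and 6 were in the top 10%. Mylpf gave 33003 and 30204, Myl1, the fast alkali chain, gave 25145 and 23455, and Myl4, the embryonic and atrial chain, gave 18102 and 16081. The non-muscle chains Myl12a (28836 and 30655) and Myl12b (12271 and 12334) and the regulatory chain Myl9 (2926 and 2851) were also in the top 10%. The atrial chain Myl7 (37.4 and 3.91) and the skeletal light chain kinase Mylk2 (60.1 and 22.8) were not bright. Of 3 slow chains, 1 was bright, 2 were not and 0 were in the top 10%.

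All 6 actins were bright and 5 were in the top 10%. Acta1, skeletal actin, gave 27073 and 25836 and Actc1, the cardiac actin that also serves developing skeletal muscle, gave 16838 and 17039.5. The cytoskeletal actins Actb (28732 and 26235) and Actg1 (36097 and 33306) and the smooth muscle actin Acta2 (31972 and 30622) were in the top 10%, and the smooth muscle actin Actg2 (1480.1 and 1403) was bright and below it. Without probe sets that may match several transcripts, 3 of the actins remained in the top 10%.

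Of 8 troponins, the calcium switch of the thin filament, 7 were bright and the same 7 were in the top 10%. Slow and fast forms of each subunit were present together. Troponin C gave 17476 and 19996 for the slow and cardiac Tnnc1 and 15394 and 14789.6 for the fast Tnnc2. Troponin I gave 13192 and 12611 for slow Tnni1 and 12467 and 11281 for fast Tnni2. Troponin T gave 19681 and 19566 for cardiac and embryonic Tnnt2, 6379 and 6833 for fast Tnnt3 and 5135 and 5005 for slow Tnnt1. The exception was cardiac Tnni3 at 67.8 and 57.5, which was above the ceiling on Control_1 and below it on Control_2. All 4 tropomyosins, which lie along the thin filament, were in the top 10%.

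**Figure D3:**
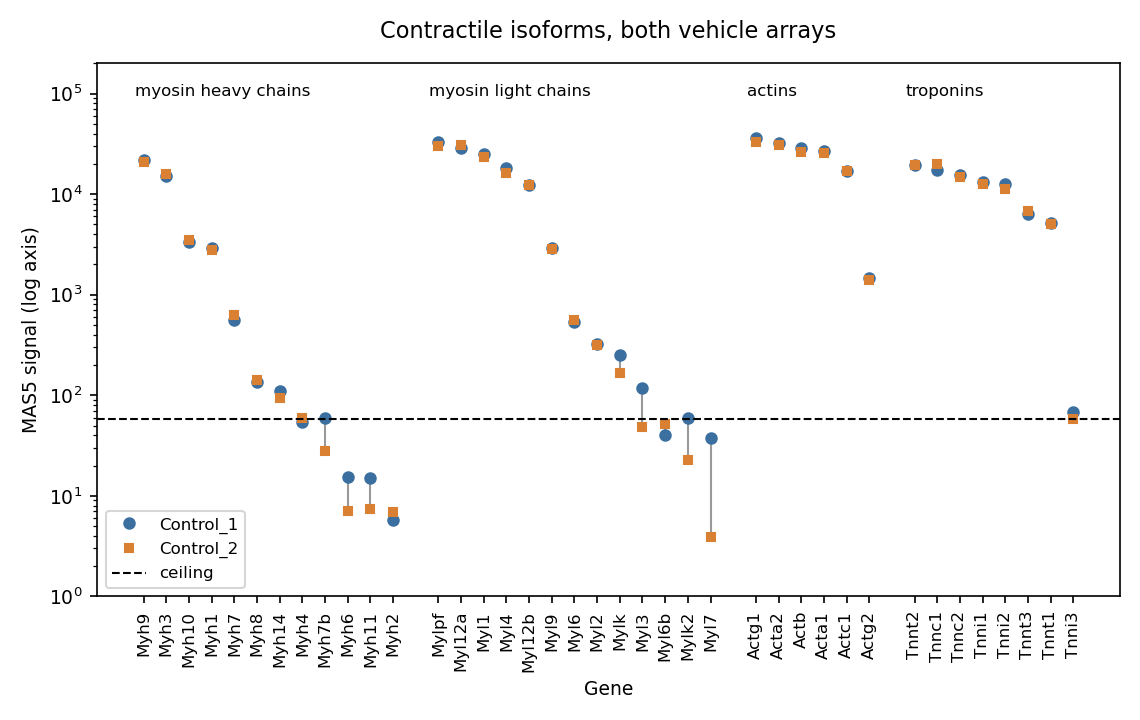
MAS5 signal (log axis) of each measured myosin heavy chain, myosin light chain or kinase, actin and troponin, with 1 point per array and lines joining the arrays; genes are in order of mean signal within a family. Troponins other than Tnni3 lie above 5000 on both arrays, and the heavy chains Myh6, Myh11 and Myh2 lie well below the ceiling of 57.9 on both.

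Other sarcomere genes were less uniform. Of 38 measured, 31 were bright and 10 were in the top 10%. Fhl1, a LIM protein, gave 17172 and 17471, the chaperone Cryab gave 14514 and 13393, and Mybph, a myosin-binding protein, gave 10558 and 10719.5. The M-band gene Myom2 gave 9468 and 9017, the intermediate filament gene Des gave 7133 and 7936 and the fast alpha-actinin Actn3 gave 7115 and 7678. At the other end, Fhl3 (38.7 and 9.80) and Myot (3.30 and 8.21), a Z-disc protein, were below the ceiling on both arrays.

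Of 21 fusion and adhesion genes, 20 were bright and 12 were in the top 10%. The annexins Anxa1 and Anxa2, which act in membrane repair, gave 31311 and 30550.0 for Anxa1 and 24276 and 22398 for Anxa2. The tetraspanins Cd81 and Cd9 gave 16442 and 16584 for Cd81 and 13357 and 12748 for Cd9, and the integrin Itgb1 gave 6267 and 6655. Mymx, the small muscle-specific protein that drives myoblast fusion, gave 6839 and 7673. Its partner Mymk, named after its values were seen, gave 2297 and 1915. The repair genes Dysf (168 and 184) and Trim72 (3.37 and 1.71) were the dimmest of the list, and Trim72 was the member not bright.

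Of 10 genes of the neuromuscular junction, 8 were bright (80%, against 60.4% of all genes). In the top 10% was 1 (10%), the same share as over all genes. The acetylcholine receptor subunit Chrna1 gave 15174 and 14005, Chrnb1 gave 2675 and 2734 and the embryonic subunit Chrng gave 1375 and 1145. The adult subunit Chrne was dim at 29.0 and 31.0. The clustering protein Rapsn gave 1879 and 1666, the agrin receptor Lrp4 1407 and 1535 and the adaptor Dok7 449 and 522, while the esterase Ache (46.7 and 44.6) was below the ceiling.

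Of 18 genes of excitation and the calcium store, 16 were bright and 4 were in the top 10%. Casq2, the calcium-binding protein of cardiac and slow muscle stores, gave 8148 and 8079, and the calcium pump Atp2a2 gave 8106 and 7686. Srl, a protein of the sarcoplasmic reticulum, gave 3899.6 and 4134. The calcium channel subunits Cacna2d1 and Cacng1 gave 3234 and 3089 for Cacna2d1 and 2025 and 2157 for Cacng1, and Jsrp1, of the junction of the store, gave 1889 and 1986. The calcium buffer Pvalb (74.7 and 20.7), found in mature fibres, and the pump regulator Sln (44.5 and 8.81) were not bright.

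Of 12 genes of the dystrophin complex, which links the cytoskeleton to the matrix, 9 were bright (75%, against 60.4% of all genes) and 3 were in the top 10%. Dag1, the matrix-binding core, gave 7242 and 6725, Utrn, the relative of dystrophin, gave 3871 and 3728, and Sgcb gave 3369.7 and 3390.4. Sntb1 (1838 and 1908), Sspn (1905 and 1713) and the laminin Lama2 (995 and 904) were also bright. Dmd, dystrophin itself, gave 20.1 and 15.6, and all 4 of its probe sets were below the ceiling. Dtnb (51.5 and 56.2) was below the ceiling too.

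Of 42 cell cycle genes, 41 were bright (97.6%, against 60.4% of all genes). In the top 10% were 5 (11.9%), a share near the 10% of all genes. The median percentile was 78.4, below that of all listed genes. The replication clamp Pcna gave 10082 and 9679.9 and the ribonucleotide reductase subunit Rrm2 gave 8472 and 9045, both in the top 10%. Cdk4 (3819 and 4006) and Ccnd3 (3767 and 3488), a kinase of early cell cycle and a cyclin that also persists in myotubes, were in the top 10% too. Mcm7, of the replication helicase, gave 3550.3 and 3397, also in the top 10%, and the mitotic activator Cdc20 gave 2751 and 2755, below it. Mki67 gave 1628 and 1575, the mitotic factor Foxm1 84.9 and 121, and Tyms, which makes thymidylate, 52.3 and 52.3, the member below the ceiling. In bulk RNA, fewer cells of a kind and less RNA per cell cannot be told apart, so these values do not give the share of cells still cycling.

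Genes of cell cycle exit were bright in the same RNA, with 14 of 16 bright and 5 in the top 10%. Cdkn1a, the inhibitor p21, gave 14594 and 13033 at percentile 98.8. Btg1, an antiproliferative gene, gave 11559 and 12071, Ccng1 gave 6768 and 7007 and Gadd45a gave 6138 and 6154. Rb1, the retinoblastoma gene, gave 4242 and 4563, and Trp53inp1 gave 1764 and 1999. The inhibitors Cdkn2a (27.9 and 25.8) and Cdkn2b (15.4 and 30.3) were the members below the ceiling. The RNA thus held transcripts of replication and of withdrawal together.

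Collagen genes were bright in 16 of 18 cases and in the top 10% in 9. The fibrillar chain Col3a1 gave 33191 and 33332, Col1a2 gave 23742 and 22138, Col5a2 gave 19488 and 18621 and Col5a1 gave 7907 and 7967. The microfibrillar Col6a2 gave 5426 and 6106 and Col8a1 gave 5719 and 5444. The dim collagens were Col11a1 (79.8 and 27.0), a cartilage chain, and Col15a1 (24.3 and 6.93), a basement membrane chain.

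Of 35 matrix and matricellular genes, 34 were bright and 23 were in the top 10%. Sparc, which binds collagen, gave 35096 and 32441 and fibronectin, Fn1, gave 28119 and 26659. The small leucine-rich proteoglycans Bgn (23248 and 22815), Ogn (20262 and 22903) and Dcn (14781 and 14754) were all in the top 10%, as was the protease inhibitor Timp2 (19495 and 19473). Elastin, Eln (58.0 and 10.6), was the exception, being below the ceiling on Control_2, and the laminin Lama4 gave 89.4 and 126. Matrix and collagen genes were thus among the brightest in a culture that also held the sarcomere genes described above.

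Glycolytic genes were all bright, 20 of 20, with 9 in the top 10%. Pgk1 gave 16305 and 17372, Aldoa gave 15121 and 13528, Tpi1 gave 13449 and 13679 and Ldha gave 11589 and 12034. Eno3, the muscle enolase, gave 12432 and 13113 and Pgam1, the broadly made mutase, gave 8200.0 and 8509.5. Aldoc, the brain aldolase (102 and 90.3), and the lactate transporter Slc16a3 (84.2 and 79.8) were the dimmest. Of 8 glycogen genes, 7 were bright and 2 were in the top 10%, with Ugp2 at 5085 and 5387 and Gyg, the primer of glycogen, at 2951 and 3022. Muscle phosphorylase Pygm (104 and 126) was bright and the phosphorylase kinase subunit Phkg1 (4.57 and 0.911) was below the ceiling.

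The creatine and adenylate buffer was mixed, with 9 of 12 genes bright (75%, against 60.4% of all genes) and 4 in the top 10%. Gatm, which starts creatine synthesis, gave 5247 and 5253, and the brain-type kinase Ckb gave 4649 and 5006. Adenylate kinase Ak1 gave 2913 and 3118 and the AMP deaminase Ampd2 gave 2896 and 2815. Muscle Ampd1 (44.6 and 4.20) and the muscle mitochondrial kinase Ckmt2 (23.6 and 0.504) were below the ceiling, while Ckm was bright.

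The mitochondrial lists were bright. All 22 genes of the TCA cycle were bright, with 16 in the top 10%, and Mdh2 gave 17075 and 16586, Mdh1 14131 and 15269.5 and citrate synthase, Cs, 10117 and 9498. Of 70 genes of oxidative phosphorylation, 69 were bright and 64 were in the top 10%. By complex, the share in the top 10% was 32 of 34 for complex I, 9 of 9 for complex III, 8 of 12 for complex IV and 15 of 15 for complex V. Uqcrb, of complex III, gave 30747 and 28309.7 and Cox6a1, of complex IV, gave 25176 and 23733. Cox7a1 (124 and 124) was the dimmest bright member and Ndufb4 (41.5 and 31.1), of complex I, the one below the ceiling. All 20 genes of fatty acid oxidation were bright and 5 were in the top 10%, with Acadl at 7427 and 7693 and the fatty acid carrier Cd36 at 119 and 88.4.

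Genes of lipid synthesis were bright in 18 of 18 cases, with 9 in the top 10%. The desaturases Scd2 and Scd1 gave 24670.2 and 26013 for Scd2 and 14786 and 14020.0 for Scd1. The sterol pathway genes Hmgcs1 (10625 and 10783) and Fdps (6143 and 6554) were also bright. Of 23 genes on the list of growth factors and binding proteins, 21 were bright and 5 were in the top 10%. The brightest of these 5 was Ctsl, the lysosomal protease cathepsin L, at 21075 and 20817, which is neither a growth factor nor a binding protein. The binding proteins Igfbp5 (17341 and 15500.2), Igfbp2 (11716 and 11449.6) and Igfbp7 (9188 and 9971) were among the brightest, while Fgf2 (39.5 and 45.5) was not bright.

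Related isoforms were set side by side in 18 pairs, of which 16 had both genes measured. Most pairs set a muscle form beside a more broadly made one, while the troponin pairs set slow beside fast muscle forms and Chrng and Chrne are embryonic and adult subunits of the muscle receptor. Values within a pair come from different probes, so no ratio is taken and only the position against the ceiling and the rank is read. In the cytochrome oxidase pairs, the muscle form stood lower in rank each time: Cox6a2 at 844 and 667 and Cox6a1 at 25176 and 23733. Cox7a1 gave 124 and 124 against 18718 and 18535 for Cox7a2, and Cox8b gave 695 and 553 against 7142 and 7853 for Cox8a. Muscle Pgam2 gave 416 and 479 and Pgam1 8200.0 and 8509.5, and muscle Pygm gave 104 and 126 and brain Pygb 721 and 838. The order ran the other way for phosphofructokinase, with muscle Pfkm at 1471 and 1311 and liver Pfkl at 601 and 532.

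The adenine nucleotide carriers were both in the top 10%, with the muscle form Slc25a4 at 17133 and 16919 and Slc25a5 at 13950.1 and 14053. The fast calcium pump Atp2a1 gave 429 and 382, and the other pump gene of the pair, Atp2a2, gave 8106 and 7686. Further probe sets of Atp2a2 had means from 5247 down to 73.8, and the signal does not tell its transcript forms apart. Sarcomeric Actn2 gave 259.7 and 237 and the non-muscle Actn1 gave 8116 and 8458. Creatine kinase gave 1599 and 1773 for Ckm and 4649 and 5006 for Ckb. Dmd gave 20.1 and 15.6, below the ceiling, and Utrn gave 3871 and 3728. Other Utrn probe sets gave 133 and 84.5, and 48.0 and 44.9, the last below the ceiling. The embryonic and adult receptor subunits Chrng and Chrne lay on opposite sides of the ceiling by the brightest probe set of each. Other Chrng sets gave 561 and 548, and 37.2 and 2.36, the last below the ceiling. Of the pairs with 1 gene not analysed here, Eno3 gave 12432 and 13113 and Cpt1a, the liver-type carnitine transferase, gave 932 and 1347. The Cpt1a value came from a probe set that may match related transcripts. Its other sets gave 1070 and 763, the other way between the arrays, and 301 and 349.

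**Figure D4:**
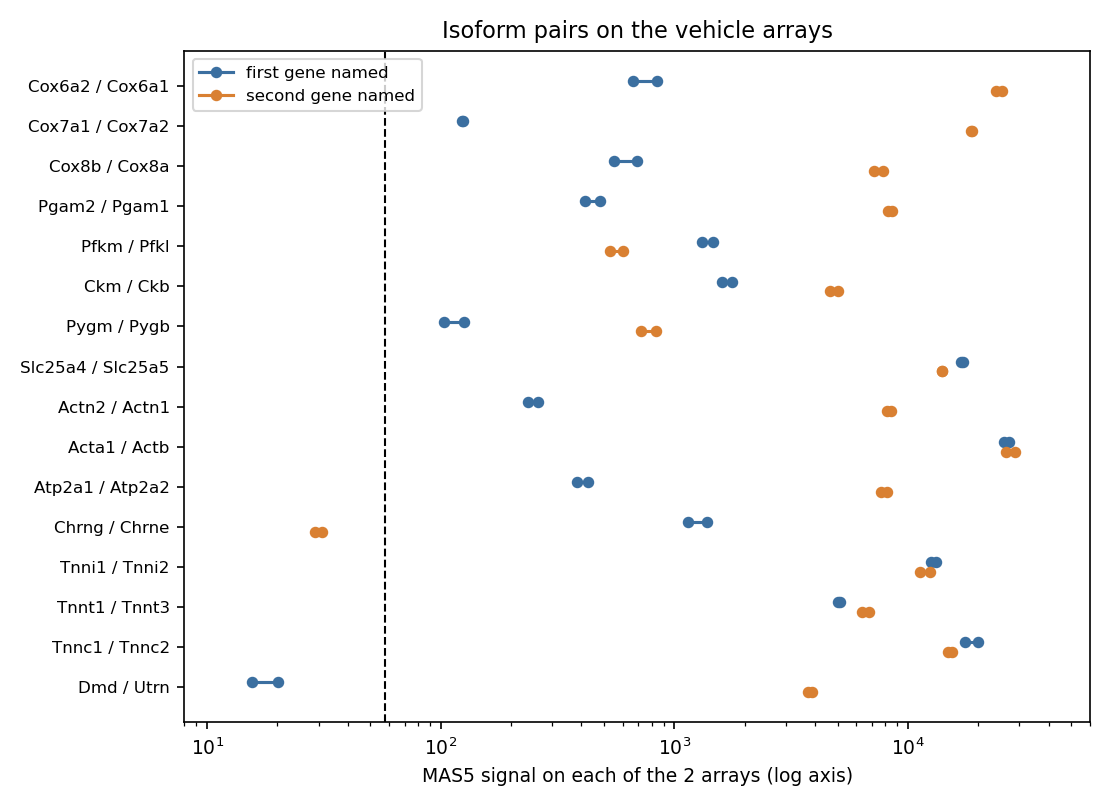
MAS5 signal (log axis) of the 16 pairs in which both genes were measured, with blue points for the gene named first, orange points for the gene named second, 1 point per array and a dashed line at the ceiling of 57.9. The muscle genes Cox6a2, Cox7a1, Cox8b, Pgam2 and Pygm lie to the left of their counterparts, and Dmd and Chrne lie left of the dashed line.

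The arrays differed little for bright genes. Signals on a log2 scale correlated across the 10990 bright genes at r = 0.993 and across all genes at r = 0.950, with a Spearman rho of 0.968 over all genes. Genes are not independent replicates, and both arrays share a platform and a scaling, so these are descriptions. The log2 ratio of Control_2 over Control_1 had a median of 0.00 and an SD of 0.238 over bright genes, and 51.0% of these were higher on Control_2. Genes not bright had a median log2 ratio of -0.33, and the median signal over all probe sets was lower on Control_2 too. Ranked on either array alone, 94 of the 100 brightest genes and 1753 of the 1820 genes in the top 10% were shared.

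Of 10990 bright genes, 383 (3.48%) differed at least 1.5-fold and 38 (0.346%) at least 2-fold between the arrays. Of the 38, 13 were higher and 25 lower on Control_2. On a log2(signal + 50) scale, which damps the differences of dim genes, 2 genes differed 2-fold and 124 differed 1.5-fold. The spread fell with brightness. The SD of the log2 ratio was 1.67 for the 6713 genes with a mean at or below 57.9, 0.548 from there to 200, 0.226 from 200 to 1000, 0.132 from 1000 to 5000 and 0.106 above 5000. Of the 944 genes above 5000, 0 differed 1.5-fold, and of the 3441 from 1000 to 5000, 4 did. The dim isoforms named above, such as Myh6, Myot and Sln, lie in the range where the arrays themselves differ most.

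**Figure D5:**
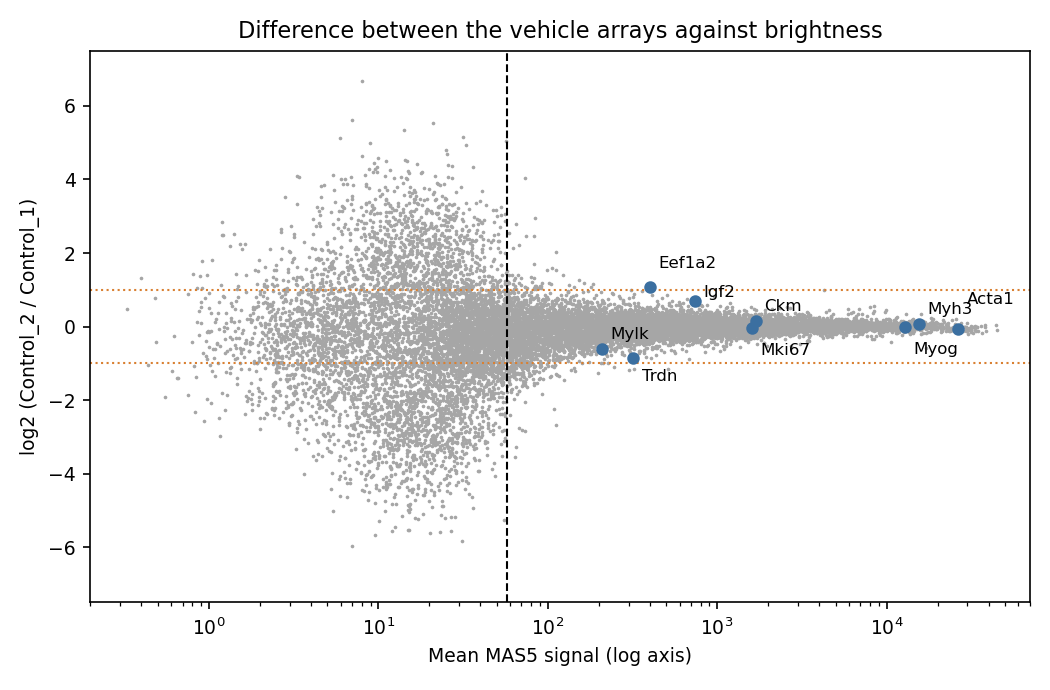
Log2 ratio of Control_2 over Control_1 for each of 18193 genes against mean MAS5 signal (log axis), with dotted lines at 2-fold either way and a dashed line at the ceiling of 57.9. The points narrow to the right, and the 5 markers lie close to 0. Trdn, Igf2 and Eef1a2 lie apart from most genes of like signal. Mylk, with a mean of 210, lies next to the range below 200, where the spread is wider.

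Among the 426 bright members of the muscle, cycle, matrix and metabolism lists, 3 (0.704%) differed 1.5-fold and 0 differed 2-fold. Over all bright genes the shares were 3.48% and 0.346%. The measured list members had a median signal of 2104, against 180 for all genes, and the spread fell with brightness, as given above. Whether list members differ less than other genes of like signal was not tested. Trdn, which anchors the calcium release channel, gave 411 and 229 (log2 ratio -0.84), Mylk, a myosin light chain kinase, gave 254 and 165 (-0.62) and Igf2, a growth factor of muscle differentiation, gave 566 and 913 (0.69), all 3 named after their values were seen. A further bright probe set of Mylk went the other way, at 89.7 and 126, so its difference is uncertain. The other bright probe sets of Trdn were all lower on Control_2, with log2 ratios from -0.68 to -0.41, and the other probe set of Igf2 was below the ceiling. The largest differences over all bright genes were at low signals. Ccdc138 (182 and 66.2, log2 ratio -1.46) was lowest on Control_2 relative to Control_1, and Ankrd23, a muscle ankyrin repeat gene, gave 282 and 117 and Zdhhc12 422 and 186. In the other direction, Prrt4 gave 67.3 and 177 (log2 ratio 1.40), while its other probe sets had log2 ratios of 0.13 and -1.81. Eef1a2, the elongation factor of muscle and neurons, gave 257 and 546 (1.09). With 1 array on each side, no test of any of these differences is possible.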

How the data were processed

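Total RNA of 2 samples of C2C12 cells, given vehicle and differentiated for 48 h, was measured on 1 array each. The deposited values are MAS5 intensity values on a linear scale, made by the authors with MAS5 and Affymetrix Expression Console, per the submitters' processing notes. No version of either tool is stated there. Detection calls and scan dates were not used, and having only 2 arrays limits precision. The array has 45101 probe sets, which comprise 64 controls, 34945 with a single symbol in the platform annotation, 932 with several and 9160 with none, and 34741 matched the mouse gene table by gene identifier. The 18193 genes with a single-symbol probe set were each represented by the set with the highest mean, with no further normalization. Of 544 listed genes, 515 were measured and 29 were not analysed here, such as Gapdh. The members and lists were chosen with earlier results of these data known. Named genes were the 5 markers, the 30 brightest genes, up to 6 brightest and 2 dimmest genes of each list, every member of the heavy chain, actin, troponin and myogenic factor lists, both genes of each isoform pair, and the 10 largest and 10 smallest log2 ratios among bright genes. Exceptions are stated where they appear. Counts and ratios were computed with Python 3.11.15, pandas 2.3.3 and NumPy 2.4.6, and the calculation was tested on simulated data. There was 1 group, so no test was run. Alternatives were other ceilings, the mean over probe sets, removal of probe sets with the suffixes _s_at and _x_at, quantile normalization, an offset of 50, and each array alone.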

Additional observations from a re-analysis of the deposited data

Results flagged for a closer look

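Probe sets that could not be assigned to 1 gene were left out of the ranking, yet many carried signal above the ceiling of 57.9. Of 9160 probe sets with no gene symbol, 2171 (23.7%) were bright on both arrays, and 77 of them exceeded 5000 on both. Of 932 probe sets with several gene symbols, 551 (59.1%) were bright on both arrays and 175 exceeded 5000 on both. Over the ranked genes, 60.4% were bright. The source of these signals was not tested, and genes that are measured only by such probe sets are not analysed here.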

How the results depend on the processing

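The number of genes bright on both arrays was 10990, and it fell to 6377 with the ceiling at a signal of 500, by construction. With the mean over all probe sets of a gene, the percentiles were 99.34 for Myog, 99.566 for Myh3, 99.901 for Acta1, 81.454 for Ckm and 88.952 for Mki67. Without _s_at and _x_at probe sets they were 98.972, 99.307, 99.849, 85.5 and 84.79 in the same order. Each of these settings changes which probe sets are compared. On a single array, the percentiles ranged from 98.642 to 98.681 for Myog, 99.055 to 99.143 for Myh3, 99.736 to 99.764 for Acta1, 83.428 to 84.67 for Ckm and 83.103 to 83.659 for Mki67. On a single array, 11216 to 11549 genes were bright, with 431 list members bright and 216 in the top 10% on either. The genes that differed 2-fold between the arrays were 38, against 2 on the log2(signal + 50) scale, 3462 over every gene and 1 among genes with both signals at least 500. At 1.5-fold there were 383, against 124, 5145 and 9 at these settings. The SD of the log2 ratio was 0.238, against 0.1906, 1.0561 and 0.1405, and 0.224 with the mean over probe sets. The dim genes and the offset set these values, by construction. Of 299 list counts recomputed, 289 stayed within 1.5 times and 10 moved further, such as heavy chains in the top 10%, from 4 to 2 with the mean over probe sets. At that setting creatine genes in the top 10% went from 4 to 2, fatty acid oxidation genes from 5 to 8 and junction genes from 1 to 2. No paired analysis was possible because the vehicle arrays form 1 group and no other group was compared. Signals below 57.9 varied most between the arrays, which limits what can be read from dim genes, and with 2 arrays no SD is well known.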
